A study of Mus musculus with 15 samples.

Results

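This account follows 10 genes that mark the midbrain, its border with the hindbrain (the isthmus) and midbrain dopaminergic neurons: En1, En2, Otx2, Lmx1a, Foxa1, Foxa2, Nr4a2, Pitx3, Slc6a3 and Aldh1a1. They were taken by symbol from the 57180 Ensembl genes listed in the count tables, 51884 (90.7%) of which had a symbol, and each of the 10 matched 1 gene. The study sequenced polyA RNA of brain stem tissue, from the centers that control ventilation, in C57BL/6 mice. In the first experiment, neonatal mice gave 3 libraries labelled AMPK-/- (AMPKα2-/- in the study's methods) and 3 libraries of wild-type (WT) littermates labelled AMPK+/+. In the second, prenatal mice gave 3 WT libraries labelled LMX1B+/+, 3 labelled LMX1B+/- and 3 labelled LMX1B-/-, a genotype that is lethal before birth. The embryonic age, the alleles and whether each library came from 1 animal are not given in the sources used here, so p-values measure only the spread between these libraries. Counts are given as CPM, the usual depth-scaled count, computed on TMM-scaled library totals, and levels of different genes are compared only as RPKM, which also divide by gene length.

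Dopaminergic neurons of the ventral midbrain arise from floor plate cells that express the forkhead factors Foxa1 and Foxa2 and the LIM homeodomain factor Lmx1a, a close relative of Lmx1b. Otx2 specifies the territory anterior to the isthmus, and the homeodomain factors En1 and En2 act on both sides of it under control of the isthmic organizer, a signalling center whose Fgf8 and Wnt1 depend on Lmx1b. Newborn dopaminergic neurons turn on the nuclear receptor Nr4a2 and the homeodomain factor Pitx3, and later the dopamine transporter Slc6a3 and, in some of them, the retinaldehyde dehydrogenase Aldh1a1.

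Prenatal LMX1B-/- libraries held less En1, En2 and Slc6a3 RNA than any WT library, but none of the 3 differences passed the adjusted threshold. In that comparison the groups did not overlap for 18% of all genes. En1 was at 4.09 CPM in LMX1B-/- libraries against 16.3 in WT, and En2 at 3.30 against 27.9. LMX1B+/- libraries had called decreases of Slc6a3 and Aldh1a1, where 36.7% of all genes were called and 17.3% were called lower. En1 and En2 were called lower in LMX1B-/- than in LMX1B+/-, where 25.5% of all genes were called and 14% were called lower. The En1 and En2 calls held in only 4 of 9 fits with 1 library left out, and DESeq2 made neither. The remaining transcription factors, Otx2, Lmx1a, Foxa1, Foxa2 and Nr4a2, overlapped between all prenatal genotypes. In neonatal libraries Aldh1a1 was the 1 gene of the set at a high level, and no member differed between genotypes at the adjusted threshold.

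Library depth set different limits in the experiments. Total counts lay between 28833130 and 37441679 in the prenatal libraries, where 3 counts, the limit that a count of 0 allows, corresponded to 0.0676 to 0.109 CPM. In the neonatal libraries they lay between 291212 and 17384171, and the limit was 9.98 CPM in WT 2 and 9.07 CPM in AMPK-/- 3, the shallow libraries, against 0.175 to 0.198 CPM in the other 4. The targeted gene Lmx1b was at 22.5, 16.0 and 9.73 CPM in prenatal WT 1 to 3, at 30.5, 11.9 and 14.2 CPM in LMX1B+/- and at 1.45, 1.13 and 0.848 CPM in LMX1B-/- libraries. It was lower in LMX1B-/- than in WT (log2 fold change −3.82, SE 0.41, edgeR quasi-likelihood adjusted p = 0.00287), and did not pass the test between LMX1B+/- and WT (0.23, adjusted p = 0.618). Prkaa2, which encodes the α2 subunit, overlapped between the neonatal groups (−0.20, SE 0.23, adjusted p = 0.659), so its counts do not show the labelled genotype.

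Prenatal WT 2 stood apart from the other prenatal WT libraries. It was below both WT 1 and WT 3 in all 10 member genes, at a median of 32.9% of their mean, and above both in all 12 hindbrain Hox genes of a fixed marker list, at a median of 188%. It was also below both in 10 of 15 other midbrain factors, at a median of 54.4%. Of 11 diencephalon and hypothalamus markers with counts, WT 2 was below both in 6 and above both in 4, at a median of 48.4%. The summed CPM of that list was 253, 83.3 and 249 in WT 1 to 3. For 13 telencephalon markers the median was 102%. Not every midbrain list followed: of 17 isthmic organizer genes WT 2 was below both in 5 and above both in 7, at a median of 104%, and of 18 genes of dopaminergic development it was below both in 6 and above both in 7, at a median of 101%. The summed CPM of the 12 Hox genes, which pattern the hindbrain behind the isthmus, came to 181, 331 and 156 in WT 1 to 3, to 714, 361 and 265 in LMX1B+/- and to 233, 314 and 298 in LMX1B-/- libraries. The sum of En1 and En2 was 61.8, 18.8 and 51.8 CPM in WT, 28.7, 29.97 and 7.26 CPM in LMX1B+/- and 6.46, 7.63 and 8.09 CPM in LMX1B-/- libraries. WT 1 and WT 3 thus held the most engrailed and the least Hox RNA, and LMX1B+/- 1 held the most Hox RNA at a middle engrailed level. The part that the extent of the dissected tissue had in the differences below was not tested, and fewer cells of a type cannot be told apart from less RNA per cell in such tissue.

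**Figure D1:**
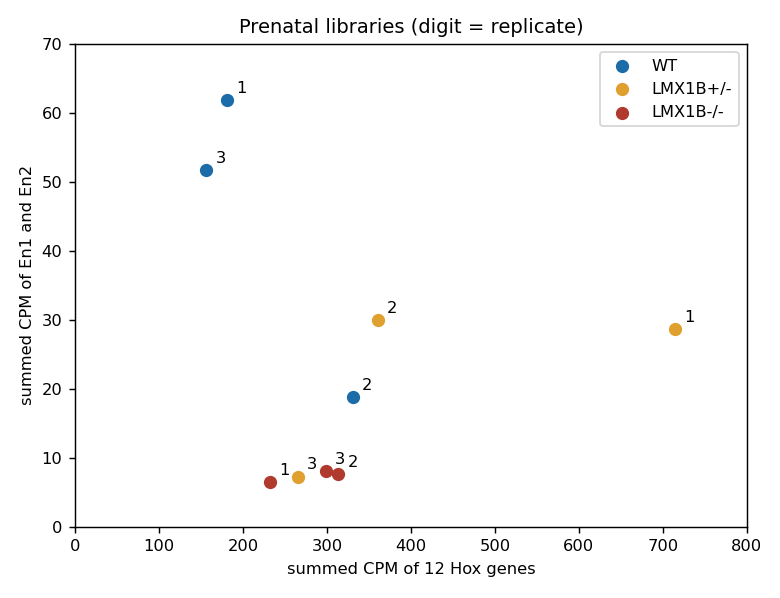
Summed CPM of En1 and En2 (vertical axis) against summed CPM of 12 Hox genes (horizontal axis) in the 9 prenatal libraries, 1 point a library, with the replicate number beside it and color for genotype. WT 1 and WT 3 lie at the top left with 61.8 and 51.8 CPM of engrailed RNA, and the 3 LMX1B-/- libraries lie between 6.46 and 8.09 CPM.

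En1, whose loss in mice removes much of the midbrain and cerebellum, was at 21.9, 6.72 and 20.2 CPM in prenatal WT 1 to 3. In LMX1B+/- libraries it was at 10.1, 12.3 and 5.40 CPM, and in LMX1B-/- libraries at 3.97, 4.31 and 4.003 CPM. Every LMX1B-/- value lay below every value of the other genotypes, and the means were 16.3 ± 8.32, 9.26 ± 3.53 and 4.09 ± 0.185 CPM (SD, n = 3 each). The log2 fold change of LMX1B-/- from WT was −1.99 (SE 0.37, edgeR quasi-likelihood adjusted p = 0.246), and the gene ranked 12 by p-value among 21729 tested. From LMX1B+/- to LMX1B-/- it fell by 1.17 on the log2 scale (SE 0.37, edgeR adjusted p = 0.0352). LMX1B+/- and WT overlapped at WT 2 (−0.82, SE 0.36, adjusted p = 0.0894). Without WT 2, both differences from WT were called, with log2 fold changes of −2.36 for LMX1B-/- (adjusted p = 0.00605) and −1.18 for LMX1B+/- (adjusted p = 0.00363). WT 2 was the lowest WT library for every member, so leaving it out raises the WT mean of these genes. Here and below, fits without WT 2 show only how far a result rests on that library.

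En2, the paralog that acts later in the cerebellum and tectum, gave 39.9, 12.1 and 31.6 CPM in prenatal WT 1 to 3. LMX1B+/- libraries had 18.6, 17.6 and 1.86 CPM, and LMX1B-/- libraries 2.49, 3.33 and 4.08 CPM. LMX1B-/- lay below all of WT, but LMX1B+/- 3 was lower still than any LMX1B-/- library. The difference of LMX1B-/- from WT was the largest of the tested members (−3.07, SE 0.63, edgeR adjusted p = 0.332) and ranked 17 by p-value. En2 fell by 1.93 from LMX1B+/- to LMX1B-/- on the log2 scale (SE 0.62, adjusted p = 0.0366), and LMX1B+/- against WT gave −1.14 (SE 0.57, adjusted p = 0.137). Over the 9 prenatal libraries, the log2 CPM of En1 and En2 correlated at r = 0.93. This describes libraries that differ in genotype and whose tissue extent is not given. En2 overlaps an annotated gene on the opposite strand (Gm43610), and since the strand setting of the counting is not given in the sources used here, their reads cannot be told apart.

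Slc6a3, the transporter that returns dopamine to the neuron, was at 6.05, 0.935 and 5.30 CPM in prenatal WT 1 to 3, at 0.543, 0.968 and 0.240 CPM in LMX1B+/- libraries and at 0.581, 0.564 and 0.769 CPM in LMX1B-/- libraries. WT 1 and WT 3 stood far above all other libraries, and WT 2 was below the highest LMX1B+/- library. Slc6a3 fell in LMX1B+/- by 2.82 on the log2 scale (SE 0.58, edgeR adjusted p = 0.0022). In LMX1B-/- libraries the change was of like size (−2.67, SE 0.57, edgeR adjusted p = 0.332) and ranked 26 by p-value, in a comparison where 8.09% of genes had an unadjusted p under 0.05 against 46.1% in LMX1B+/- against WT. LMX1B-/- and LMX1B+/- did not pass the test against each other (0.14, SE 0.65, adjusted p = 0.897). Without WT 2, the lowest WT library, the log2 fold changes were −3.28 for LMX1B+/- (adjusted p = 0.000101) and −3.14 for LMX1B-/- (adjusted p = 0.00708).

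The promoter windows of En1 and Slc6a3, which were low together in LMX1B-/- libraries, are shown with a window of Otx2, which overlapped between genotypes. The windows run from 250 bases before to 50 bases after an annotated start, from RefSeq on GRCm38.p6, and En2 had no entry. The En1 window is chr1:120602237-120602536 on the plus strand, that of Slc6a3 is chr13:73536497-73536796 on the plus strand, and that of Otx2 (the third of its 4 windows) is chr14:48665060-48665359 on the minus strand. Capitals mark exact matches on either strand to 4 short motifs: TAATTA, a homeodomain core, GGATTA, the core bound by Otx2 and Pitx3, TGTTTAC, a forkhead core, and the 8 bases of the Nr4a2 response element NBRE.
En1: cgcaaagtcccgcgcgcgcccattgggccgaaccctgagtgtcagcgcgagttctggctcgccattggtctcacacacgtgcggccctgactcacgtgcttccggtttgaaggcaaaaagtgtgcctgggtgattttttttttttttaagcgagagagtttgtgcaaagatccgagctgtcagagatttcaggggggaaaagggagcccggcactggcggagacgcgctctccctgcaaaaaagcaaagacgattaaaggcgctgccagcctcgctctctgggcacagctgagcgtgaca
Slc6a3: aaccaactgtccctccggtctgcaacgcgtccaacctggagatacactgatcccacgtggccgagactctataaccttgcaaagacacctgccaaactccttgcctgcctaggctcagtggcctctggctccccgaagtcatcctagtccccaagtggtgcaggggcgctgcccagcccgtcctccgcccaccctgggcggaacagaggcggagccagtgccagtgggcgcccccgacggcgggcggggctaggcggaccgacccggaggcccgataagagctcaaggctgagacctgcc
Otx2: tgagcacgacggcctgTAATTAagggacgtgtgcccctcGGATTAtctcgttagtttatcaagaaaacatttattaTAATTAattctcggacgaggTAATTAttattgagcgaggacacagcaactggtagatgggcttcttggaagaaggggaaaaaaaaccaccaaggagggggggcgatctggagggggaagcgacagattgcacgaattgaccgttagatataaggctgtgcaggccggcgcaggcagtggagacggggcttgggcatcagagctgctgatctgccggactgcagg
The En1 and Slc6a3 windows held none of the 4 motifs. The Otx2 window held TAATTA at −234, −174 and −154 and GGATTA at −211 from the start, and another Otx2 window held TAATTA at −141. Of the other members with a window, Foxa1 held TGTTTAC at −141 on the minus strand. Of 32851 windows of this length, 5.29% held TAATTA, 7.06% GGATTA, 3.65% TGTTTAC and 1.51% the NBRE. A match is a run of letters and not a shown site, and an absent match speaks only of these windows.

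Aldh1a1, which makes retinoic acid and marks a ventral set of dopaminergic neurons, was at 12.3, 3.53 and 14.6 CPM in prenatal WT 1 to 3. LMX1B+/- libraries had 1.52, 4.29 and 2.61 CPM and LMX1B-/- libraries 5.10, 4.01 and 2.25 CPM. Both mutant groups overlapped WT through WT 2 and lay far below WT 1 and WT 3. Aldh1a1 fell by 1.86 on the log2 scale in LMX1B+/- (SE 0.47, edgeR adjusted p = 0.00761), and the change in LMX1B-/- libraries was −1.44 (SE 0.46, adjusted p = 0.534). The annotated genes C730002L08Rik and Gm6684 overlap it on the opposite strand. Its log2 CPM correlated with that of Slc6a3 at r = 0.86 over the 9 prenatal libraries.

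Pitx3, a factor that dopaminergic neurons of the substantia nigra need to survive, was near the limit of detection. WT 1 to 3 gave 21, 1 and 23 counts of it, or 0.739, 0.0346 and 0.518 CPM, and it lay between 0.0265 and 0.194 CPM in the 6 mutant libraries from 1 to 6 counts. WT 1 and WT 3 were above all mutant libraries, and WT 2 was not. Pitx3 did not pass the filter on low counts and was not tested, so 9 of the 10 genes were tested in the prenatal experiment. Whether a gene passes depends on its level in at least 3 libraries of an experiment, of any genotype. Counts over the tested members are therefore not counts over all members.

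The 2 forkhead factors of the floor plate were low in all prenatal libraries. Foxa1 was at 3.48, 0.762 and 3.79 CPM in WT 1 to 3, at 1.77, 2.19 and 2.67 CPM in LMX1B+/- and at 2.58, 2.47 and 3.102 CPM in LMX1B-/- libraries. WT 2 was the lowest of the 9 libraries, and the mutant values lay between WT 2 and WT 1. The difference of LMX1B-/- from WT was near 0 (0.01, SE 0.40, edgeR adjusted p = 0.998) and turned negative under 3 other scalings or filters and in the fit of 6 libraries, and without WT 2 it was −0.42 (adjusted p = 0.655). LMX1B+/- against WT gave −0.29 (SE 0.41, adjusted p = 0.617), and −0.71 without WT 2, which was called (adjusted p = 0.0280).

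Foxa2, the partner of Foxa1 that also drives floor plate formation, had 2.08, 1.04 and 2.501 CPM in prenatal WT 1 to 3. LMX1B+/- libraries had 0.651, 1.97 and 0.780 CPM and LMX1B-/- libraries 2.07, 1.25 and 2.20 CPM. LMX1B+/- 1 and 3 were below all other libraries, while LMX1B+/- 2 lay within the WT range. The log2 fold changes were −0.73 for LMX1B+/- from WT (SE 0.42, adjusted p = 0.190), −0.04 for LMX1B-/- from WT (SE 0.40, adjusted p = 0.988) and 0.69 for LMX1B-/- from LMX1B+/- (SE 0.42, adjusted p = 0.256). Without LMX1B+/- 2, the highest LMX1B+/- library, the first and the last of these were called, at −1.37 (adjusted p = 0.0193) and 1.30 (adjusted p = 0.0327). Leaving it out lowers the LMX1B+/- mean, so this fit, too, shows only how far the result rests on that library.

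Lmx1a, which acts with Lmx1b in the floor plate and also marks the roof plate, was at 6.79, 4.19 and 4.66 CPM in WT 1 to 3, at 0.869, 5.94 and 3.09 CPM in LMX1B+/- libraries and at 5.39, 5.38 and 3.31 CPM in LMX1B-/- libraries. Only LMX1B+/- 1, LMX1B+/- 3 and LMX1B-/- 3 lay below the WT range. No comparison passed the test, with log2 fold changes of −0.65 (SE 0.45) for LMX1B+/- from WT, −0.15 (SE 0.44) for LMX1B-/- from WT and 0.50 (SE 0.45) for LMX1B-/- from LMX1B+/- (edgeR adjusted p = 0.279, 0.942 and 0.458). Without LMX1B+/- 2, again the highest LMX1B+/- library, the first was −1.34 and called (adjusted p = 0.0239).

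Otx2, the factor of the forebrain and midbrain, had 28.0, 17.1 and 29.7 CPM in prenatal WT 1 to 3, 15.6, 32.8 and 15.1 CPM in LMX1B+/- and 28.5, 17.3 and 19.4 CPM in LMX1B-/- libraries. The 3 genotypes overlapped throughout, with means of 24.96 ± 6.85, 21.1 ± 10.1 and 21.7 ± 5.95 CPM (SD, n = 3 each). The log2 fold changes from WT were −0.24 for LMX1B+/- (SE 0.29, edgeR adjusted p = 0.548) and −0.20 for LMX1B-/- (SE 0.29, adjusted p = 0.870). Without LMX1B+/- 2, the highest LMX1B+/- library here as well, the first was −0.68 and called (adjusted p = 0.0447).

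Otx2 and Lmx1a are also expressed in the choroid plexus and its roof plate origin. The summed CPM of 12 choroid plexus markers was 386, 242 and 332 in WT 1 to 3, 84.2, 1767 and 1014 in LMX1B+/- and 1379, 771 and 118 in LMX1B-/- libraries. None of the 12 was at 0 in any prenatal library, and Ttr, a defining marker, ranged from 63.4 to 1511 CPM. Otx2 and Lmx1a were highest among LMX1B+/- libraries in the one with the most choroid plexus RNA. LMX1B+/- 1 and 3, at 84.2 and 1014 CPM of the markers, had 15.6 and 15.1 CPM of Otx2 and 0.869 and 3.09 CPM of Lmx1a. Otx2 was at 28.0 and 29.7 CPM in WT 1 and WT 3, and at 28.5, 17.3 and 19.4 CPM in LMX1B-/- 1 to 3. The part of choroid plexus in their levels was not tested.

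Nr4a2, which turns on the dopaminergic program and is also found in other neurons, was at 12.5, 11.1 and 14.7 CPM in prenatal WT 1 to 3, at 6.48, 11.6 and 14.2 CPM in LMX1B+/- libraries and at 14.1, 13.8 and 21.0 CPM in LMX1B-/- libraries. It was the tested member with the highest LMX1B-/- value relative to WT, though the groups overlapped (0.35, SE 0.24, edgeR adjusted p = 0.701). Against LMX1B+/-, the log2 fold change was 0.60 (SE 0.24, adjusted p = 0.0894), and DESeq2 called it (0.59, adjusted p = 0.0401). Its log2 CPM correlated with that of En2 at r = −0.42 over the 9 prenatal libraries.

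**Figure D2:**
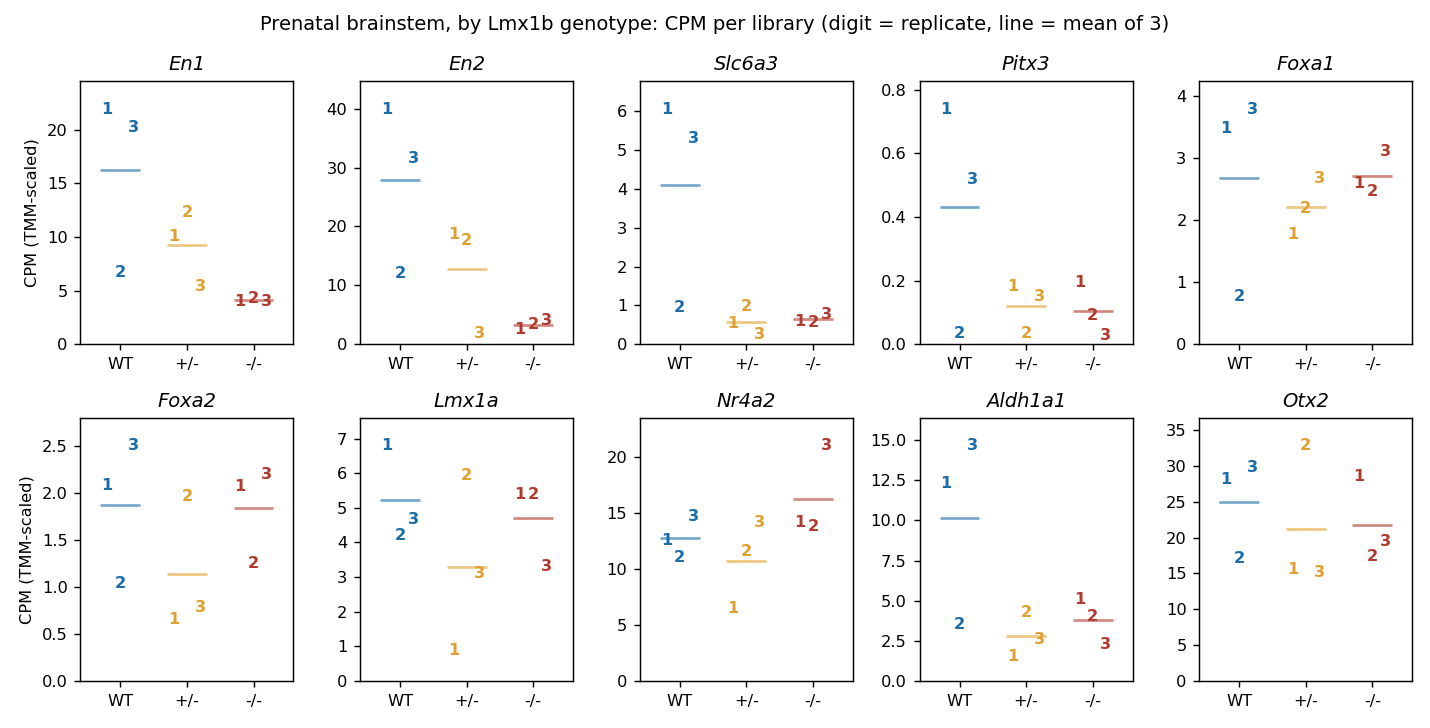
CPM of the 10 genes in the 9 prenatal libraries, 1 panel a gene with its own vertical axis from 0, digits for the replicate and a line for the mean of 3 libraries of each Lmx1b genotype. En1 and En2 in LMX1B-/- libraries lie at 2.49 to 4.31 CPM, below the WT libraries, and WT 2 is the lowest WT library in every panel.

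In LMX1B+/- against WT, 2 of the 9 tested members were called at an edgeR adjusted p under 0.05, Slc6a3 and Aldh1a1, both lower, where 36.7% of all 21729 tested genes were called and 17.3% were called lower. At an unadjusted p under 0.05, 3 members passed, against 46.1% of all genes. The members' count lies below the share of all genes called and near the share called lower, and is not a result about the members. The groups did not overlap in 0 of the 9, against 45.3% of all genes. All 9 log2 fold changes were negative, with a median of −0.73 against −0.03 over all genes tested. Scaling by library size only moved the median of all genes to −0.27 and the share of called genes that were higher from 53.0% to 26.1%, and then called 4 members, Slc6a3, Aldh1a1, En1 and En2. The share of counts on mitochondrially encoded genes was 9.58% to 14.7% in LMX1B+/- and 5.57% to 6.74% in WT libraries, and its part in these values was not tested.

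In LMX1B-/- against WT, 0 of the 9 tested members were called by edgeR, where 4 of 21729 genes (0.0184%) were called, all lower. At an unadjusted p under 0.05, 4 members (En1, En2, Slc6a3 and Aldh1a1) passed, all lower, against 8.09% of all genes. DESeq2 called 1 member (En1) among 34 genes, and limma on log2 RPKM called 0. The groups did not overlap for 3 members (En1, En2 and Slc6a3), against 18% of all genes. The median over the members was −0.20 against 0.01 over all genes, and the mitochondrial share was 7.23% to 7.98% in LMX1B-/- libraries. Lower values were not limited to the members. Of 14 cerebellar markers, 12 were tested, all with negative log2 fold changes (median −0.51), and 1 was called. The groups did not overlap for 7 of the 12, against the same 18%.

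In LMX1B-/- against LMX1B+/-, 2 of the 9 tested members (En1 and En2) were called, both lower, where 25.5% of all genes were called and 14% were called lower. At an unadjusted p under 0.05, 3 members passed (En1, En2 and Nr4a2), against 36.8% of all genes. The groups did not overlap for 1 member (En1), against 42.4% of all genes. Both calls were lost when any of LMX1B+/- 1, LMX1B+/- 2, LMX1B-/- 1, LMX1B-/- 2 or LMX1B-/- 3 was left out, with adjusted p between 0.0696 and 0.116, and under DESeq2, with adjusted p of 0.0503 for En1 and 0.0526 for En2. Scaling by library size only moved the median of all genes from 0.02 to 0.22 and the share of called genes that were higher from 45.1% to 74.2%, and called Nr4a2 (0.79, edgeR adjusted p = 0.0265) beside En1 and En2. The comparisons share libraries, so their values are set side by side and are not independent.

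**Figure D3:**
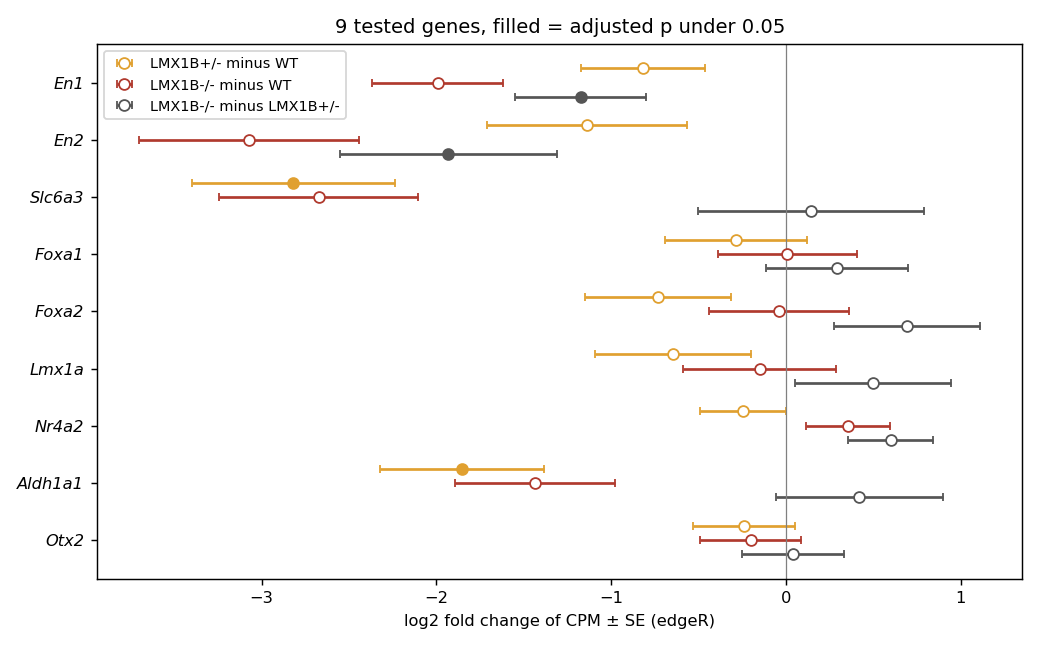
Log2 fold change of CPM ± SE from the edgeR fit (horizontal axis) for the 9 tested genes (vertical axis) in the 3 prenatal comparisons, with filled points at an adjusted p under 0.05. Filled points are Slc6a3 and Aldh1a1 for LMX1B+/- minus WT (−2.82 and −1.86) and En1 and En2 for LMX1B-/- minus LMX1B+/- (−1.17 and −1.93).

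The levels per length gave the order of the genes within a group. In prenatal WT libraries the mean RPKM was 8.45 for En2, 6.72 for En1, 6.40 for Otx2, 3.40 for Nr4a2 and 2.27 for Aldh1a1. It was 1.62 for Lmx1a, 1.29 for Slc6a3, 0.883 for Foxa1, 0.864 for Foxa2 and 0.304 for Pitx3, and each gene overlapped its neighbour in this order. In LMX1B-/- libraries Otx2 (5.37 RPKM) and Nr4a2 (4.18 RPKM) led, En1 (1.62 RPKM) did not overlap Nr4a2, and En2 came at 0.968 RPKM.

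The genes that make, store, degrade and sense dopamine were followed through a list of 11 genes. Of the 11, 0 were called by edgeR in LMX1B-/- against WT, with a median log2 fold change of −0.27. At an unadjusted p under 0.05, 4 passed, against 8.09% of all genes. Th, the rate-limiting enzyme of dopamine synthesis, was at 7.32, 2.42 and 6.35 CPM in WT 1 to 3, at 2.71, 3.23 and 2.37 CPM in LMX1B+/- and at 1.52, 2.35 and 1.41 CPM in LMX1B-/- libraries. All LMX1B-/- values of Th were below WT (−1.61, SE 0.34, edgeR adjusted p = 0.332), and it fell by 0.96 in LMX1B+/- (SE 0.33, adjusted p = 0.0387). The latter call was lost without WT 1, WT 3, LMX1B+/- 1 or LMX1B+/- 3, with log2 fold changes as small as −0.68 and adjusted p up to 0.169, and was kept without each of the other 5 libraries. Ddc, the decarboxylase of dopamine and serotonin synthesis, and Slc18a2, the vesicular monoamine transporter, also had LMX1B-/- values below all WT values, with log2 fold changes of −1.13 (SE 0.27, adjusted p = 0.491) and −0.67 (SE 0.16, adjusted p = 0.491). In this comparison the groups did not overlap for 5 of the 11 genes, against 18% of all genes. Without WT 2, the lowest WT library for both, Th and Ddc were called in LMX1B-/- against WT, at −1.96 (adjusted p = 0.00806) and −1.44 (adjusted p = 0.00708). In LMX1B+/- against WT, Qdpr and Pts, which recycle and make the cofactor of Th, rose by 0.49 and 0.48 on the log2 scale (adjusted p = 0.00413 and 0.00435). These monoamine genes are shared with serotonergic neurons. Of 8 serotonergic markers 3 were called lower in LMX1B-/- than in WT (Slc6a4, Tph2 and Lmx1b), against 0.0184% of all genes. Lmx1b is the targeted gene, so its call follows from the genotype. The 8 markers had a summed level of 32.0 to 36.1 CPM in LMX1B-/- against 75.6 to 103 CPM in WT libraries. Lmx1b itself made up 0.848 to 1.45 CPM of the former and 9.73 to 22.5 CPM of the latter. The part of serotonergic neurons in Ddc and Slc18a2 was not tested.

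Of 17 genes of the isthmic organizer, 16 were tested. Lmx1b itself was the only one called in LMX1B-/- against WT, where 0.0184% of all genes were called. At an unadjusted p under 0.05, 4 passed, against 8.09% of all genes, and the median was −0.19. In LMX1B+/- against WT, where 36.7% of all genes were called, 5 of the 16 were called, all lower: Etv5 (−0.58, adjusted p = 0.00685), Spry1 (−0.54, 0.0163) and Il17rd (−0.38, 0.0209), which act in Fgf signalling, the paired box factor Pax5 (−1.79, 0.0314) and the ligand Fgf17. Pax5 was at 33.5, 5.85 and 38.4 CPM in WT 1 to 3, at 4.74, 14.9 and 2.85 CPM in LMX1B+/- and at 4.23, 5.46 and 5.81 CPM in LMX1B-/- libraries, with WT 1 and WT 3 again highest. Its call was lost without WT 1, WT 3, LMX1B+/- 1 or LMX1B+/- 3, that of Spry1 without WT 1, LMX1B+/- 1 or LMX1B+/- 3 and that of Il17rd without WT 1, WT 2 or LMX1B+/- 3, while Etv5 was called in 9 of 9 fits with 1 library left out. Fgf8 itself was at most 0.416 CPM and Wnt1 at most 0.844 CPM in the prenatal libraries. Pax2, another early isthmic gene, did not pass the test in LMX1B-/- against WT (−0.20, SE 0.21, adjusted p = 0.805).

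Of 18 further genes of dopaminergic development, 17 were tested. In LMX1B+/- against WT, with 36.7% of all genes called, 5 of the 17 were called: Sncg rose by 1.66 (adjusted p = 0.000147) and Corin by 0.90, and Sox6 (−0.41, adjusted p = 0.00419), Bnc2 (−0.79, 0.0112) and Ret (−0.51, 0.0119) fell. Sncg and Sox6 were called in 9 of 9 fits with 1 library left out, Bnc2 not without WT 1 or LMX1B+/- 3, and Ret not without WT 2 or LMX1B+/- 3. In LMX1B-/- against LMX1B+/-, 25.5% of all genes were called. Of the 17, Sox6 (0.52) and Ret (0.62) were called higher there and Sncg (−1.03), Ebf1 (−1.10) and Lmx1b (−4.05) lower. Only Lmx1b was called in LMX1B-/- against WT, where 0.0184% of all genes were called. Of 14 tested midbrain factors outside these lists, 1 was called in LMX1B+/- against WT, Tal2 (1.69, edgeR adjusted p = 0.0386). In LMX1B-/- against WT 0 were called by edgeR, and 2 had an unadjusted p under 0.05, against 8.09% of all genes. Tal2 was at 6.30, 2.39 and 0.540 CPM in LMX1B+/- 1 to 3, its log2 fold change without LMX1B+/- 1 was 0.61 (adjusted p = 0.347), and the call was also lost without WT 1, WT 2 or WT 3. Of 12 floor plate genes, Nkx2-2 (−0.62), Gli1 (−1.21) and Ptch1 (−0.45) fell and Corin rose in LMX1B+/- against WT. In LMX1B-/- against WT 0 of the 12 were called by edgeR, and 2 had an unadjusted p under 0.05, against the same 8.09%. The floor plate calls were lost without WT 3 for Nkx2-2, without LMX1B+/- 3 for Gli1 and without any of WT 1, WT 2, LMX1B+/- 1 and LMX1B+/- 3 for Ptch1. All 12 Hox genes had positive log2 fold changes in LMX1B+/- against WT, with a median of 0.81, and 6 were called higher, where 19.4% of all genes were called higher.

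**Figure D4:**
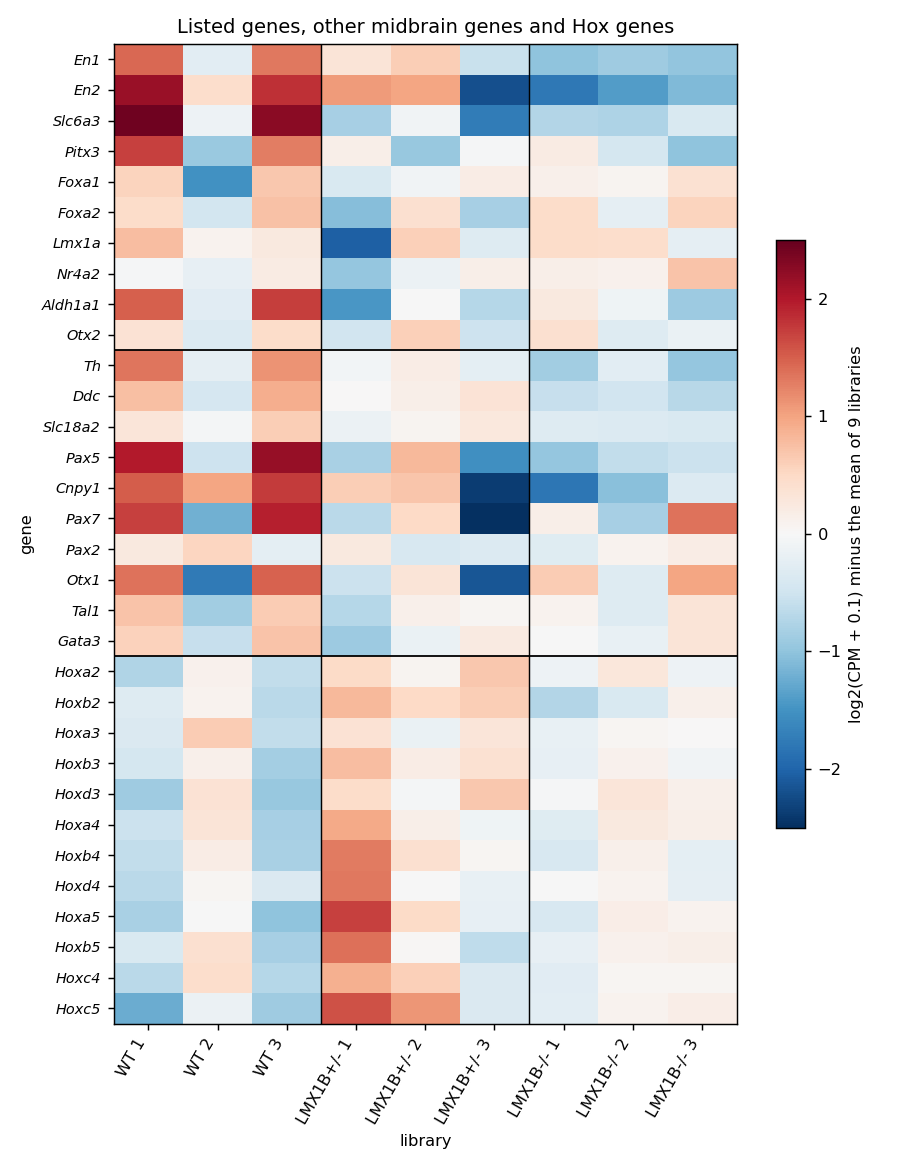
Log2(CPM + 0.1) minus the mean of the 9 prenatal libraries (color, −2.5 to 2.5) for the 10 genes (top block), other midbrain and monoamine genes (middle block) and 12 Hox genes (bottom block), with libraries as columns. WT 1 and WT 3 are red in most rows of the upper blocks and blue in the Hox block, and WT 2 is not.

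The genes most like each member over the 9 prenatal libraries, by Pearson's r of log2 CPM among 16883 genes with a mean of at least 1 CPM, included genes of the same lists. For En1 they were Mmrn1 (r = 0.96) and Th (r = 0.95), and for En2 A930017K11Rik (r = 0.96) and Cnpy1 (r = 0.96), an isthmic gene of Fgf signalling. Cnpy1 was at 32.2, 22.3 and 37.9 CPM in WT 1 to 3, at 17.3, 18.3 and 2.10 CPM in LMX1B+/- and at 3.13, 5.38 and 8.85 CPM in LMX1B-/- libraries. It shared with En2 the low value of LMX1B+/- 3. Slc6a3 was like Pax5 (r = 0.96), and for Otx2 they were Myo1d (r = 0.97) and Ttc7 (r = 0.92). Lmx1a was most like Ptpn13 and Trabd2b (both r = 0.98), Foxa2 like Ikzf1 (r = 0.97) and AW046200 (r = 0.96), Foxa1 like Fam8a1 (r = 0.95) and Gtpbp6 (r = 0.94), Nr4a2 like Nr2f2 (r = 0.94) and Col6a4 (r = 0.94), and Aldh1a1 like Twsg1 (r = 0.96) and Gpr182 (r = 0.91). With 9 libraries and this many candidates, high values arise readily, and they are given as a description.

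The neonatal libraries held 1 member at a high level. Aldh1a1 was at 183, 143 and 161 CPM in WT 1 to 3 and at 247, 185 and 184 CPM in AMPK-/- 1 to 3. On this scale the lowest AMPK-/- library, a shallow one with 61 counts, was just above the highest WT library. In RPKM the groups overlapped, at 29.9 to 37.6 in WT and 33.2 to 48.6 in AMPK-/-. The difference did not pass the test (0.33, SE 0.17, edgeR adjusted p = 0.241). Per length it reached 34.5 ± 4.09 RPKM in neonatal WT (SD, n = 3), where the next member, En2, was at 0.811 RPKM and did not overlap it. In prenatal WT libraries Aldh1a1 was at 2.27 RPKM. Age, depth and experiment cannot be told apart in that contrast, and Aldh1a1 is also expressed outside dopaminergic neurons. Slc6a3, the defining transporter, gave 0.132, 0 and 0.292 CPM for neonatal WT 1 to 3 and 0, 0.518 and 0 CPM for AMPK-/- 1 to 3, and the counts of 0 in WT 2 and AMPK-/- 3 allow up to 9.98 and 9.07 CPM.

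The other members were low in neonatal libraries. En2 had 2.24, 3.33 and 2.63 CPM in WT 1 to 3 and 1.72, 0.777 and 0 CPM in AMPK-/- libraries, and the values of the shallow libraries rest on 1 and 0 counts. Nr4a2 had 2.04, 0 and 3.33 CPM in WT and 5.02, 3.56 and 9.07 CPM in AMPK-/- libraries. Its value in WT 2 rests on 0 counts, which allow up to 9.98 CPM, and that in AMPK-/- 3 on 3 counts. Neither pair of groups overlapped, but neither difference passed the test, at −1.02 for En2 (SE 0.53, edgeR adjusted p = 0.235) and 0.81 for Nr4a2 (SE 0.44, edgeR adjusted p = 0.260). En1 gave 0.0658, 0 and 1.23 CPM for WT 1 to 3 and 1.39, 0.259 and 3.02 CPM for AMPK-/- 1 to 3. It passed the filter through WT 3, AMPK-/- 1 and AMPK-/- 3, and the value of the last rests on 1 count. Its log2 fold change of 0.43 (SE 0.82, edgeR adjusted p = 0.796) ranged from −0.80 without AMPK-/- 1 to 3.55 without WT 3. Otx2 reached 1.17 CPM in WT 3 and Foxa1 1.06 CPM in AMPK-/- 1, Lmx1a reached 0.992 CPM and Pitx3 0.0661 CPM, and Foxa2 had a count of 0 in all 6 libraries.

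In AMPK-/- against WT, 4 of the 10 members passed the filter and 0 were called by edgeR, where 8.94% of 17397 genes were called, 3.77% higher and 5.17% lower. Of the 4, 0 had an unadjusted p under 0.05, against 24.6% of all genes, and DESeq2 and limma on log2 RPKM also called 0, with at most 1 at an unadjusted p under 0.05. The groups did not overlap for 3 of the 4, against 26.6% of all genes. For En2 and Nr4a2, a count of 0 in a shallow library has a limit that allows overlap, and for Aldh1a1 the groups overlapped in RPKM. The median was 0.38 against −0.01 over all genes. Scaling by library size only moved the median of all genes to −0.18 and the share of called genes that were higher from 42.1% to 14.2%. The mitochondrial share was 20.0% to 21.7% in AMPK-/- and 10.4% to 13.9% in WT libraries, and its part was not tested. WT 3 also held 1051 CPM of 13 skeletal muscle markers, against 9.07 to 17.1 CPM in the other 5 libraries.

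Of the dopamine list, 10 of 11 genes were tested in the neonatal libraries. Of these, 3 were called higher in AMPK-/-, where 3.77% of all genes were called higher. Slc18a2 rose by 2.46 on the log2 scale (SE 0.49, edgeR adjusted p = 0.00371), Ddc by 1.55 (SE 0.37, adjusted p = 0.0118) and Gch1, which starts the synthesis of the cofactor of Th, by 2.20 (SE 0.53, adjusted p = 0.0130). Slc18a2 was at 103, 12.05 and 33.2 CPM in AMPK-/- 1 to 3, against 12.05, 9.98 and 7.53 CPM for WT 1 to 3, so AMPK-/- 1 carried most of the difference. Without AMPK-/- 1 the log2 fold changes were 0.73, 0.72 and 0.93, and none of the 3 was called. Th did not pass the test (−0.57, SE 0.44, adjusted p = 0.450). The summed level of 8 serotonergic markers was 251, 41.8 and 136 CPM in AMPK-/- 1 to 3 and 31.1 to 59.9 CPM in WT libraries, in the same order as Slc18a2 among AMPK-/- libraries, and its part in these values was not tested. Of the developmental and isthmic lists, Sncg (2.37) and Nkx6-1 (1.83) rose and Pax2 (−1.81) and Lmx1b (−1.35) fell, with edgeR adjusted p of 1.7e-05, 0.0404, 0.00582 and 0.0233. Of these, only Sncg kept an adjusted p under 0.05 whichever 1 library was left out, and without both shallow libraries none was called.

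**Figure D5:**
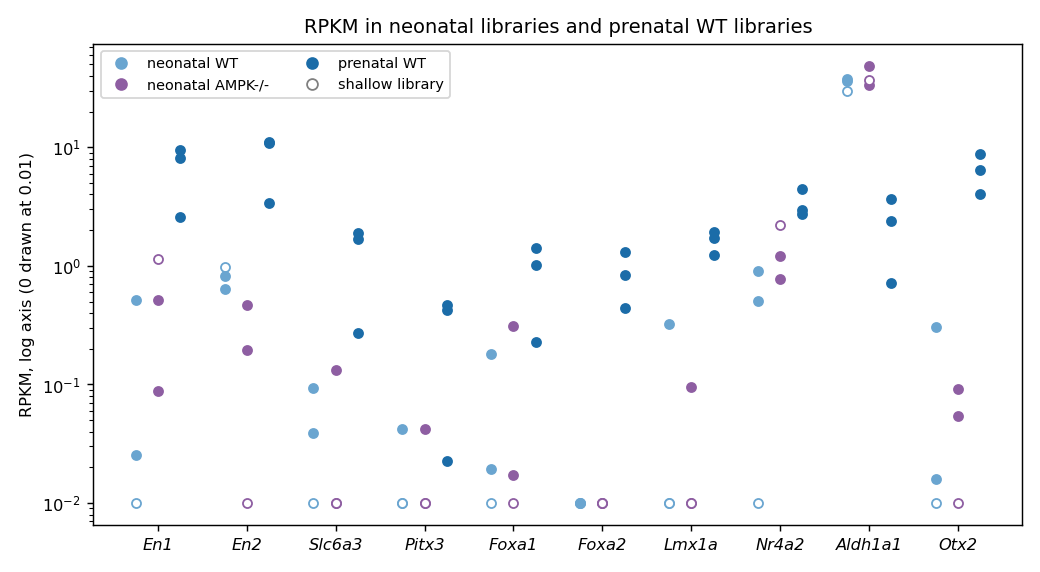
RPKM on a log axis (vertical, 0 drawn at 0.01) of the 10 genes (horizontal) in neonatal WT, neonatal AMPK-/- and prenatal WT libraries, 1 point a library, with open points for the shallow libraries. Aldh1a1 has a mean of 34.5 RPKM in neonatal WT, and the other genes have means of at most 0.811 RPKM there.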

How the data were processed

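The authors deposited whole-number counts per gene and RPKM made from those counts, which are scaled by gene length and library total. Their methods and processing notes name systemPipeR, HISAT2, GRCm39 and edgeR. How reads were counted, on which strand and with which annotation, and how the molecular indexes of the NEXTflex kit were used, is not given in the sources used here, so intervals and limits cover counting error only. The column read as neonatal WT 3 has an unexplained suffix, and that read as prenatal WT 3 carries the number of its library name.

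Here, the counts were tested with edgeR 4.0.16 (R 4.3.3): filterByExpr, TMM, and the quasi-likelihood F-test in 1 fit per experiment with genotype only, with calls at 0.05 after Benjamini-Hochberg adjustment across the whole table. DESeq2 1.42.0 and limma 3.58.1 on log2(RPKM + 1) or log2(RPKM + 0.1) were alternatives. Members and gene lists were chosen with earlier results of these data known. Of each list, at most 4 called genes with the smallest p were named per comparison, with Th, Ddc, Slc18a2, Wnt1, Fgf8 and Pax2. Fgf17, Corin, Ebf1, Slc6a4 and Tph2 were named beyond that rule, to complete small counts, after their values were seen. Some genes that this rule names are not reported here. Opposite-strand genes were read from GENCODE M21 on GRCm38. The scripts were tested on simulated data: signs and sizes were recovered, false calls were somewhat above the nominal share in the prenatal comparisons and clearly above it in the neonatal one, and a limit on false calls, which a first run had exceeded, was replaced by this report of the share.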

Additional observations from a re-analysis of the deposited data

How the results depend on the processing

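The calls of members depended on single libraries. With each library left out in turn, 548 to 2958 genes were called in AMPK-/- against WT (1555 with all), 5911 to 8404 in LMX1B+/- against WT, 3 to 11 in LMX1B-/- against WT and 3500 to 6054 in LMX1B-/- against LMX1B+/-, and members called numbered 0, 2 to 5, 0 to 2 and 0 to 3. In LMX1B+/- against WT, 5 members were called without WT 2 (Slc6a3, Pitx3, Foxa1, Aldh1a1 and En1) and 5 without LMX1B+/- 2 (Slc6a3, Otx2, Lmx1a, Foxa2 and Aldh1a1). Pitx3 passed the filter in the fit without WT 2 only through WT 1 and WT 3, where it was highest. The direction of its call was thus fixed by the filter, and the call is no evidence of a decrease. En2 in LMX1B-/- against WT was called only without LMX1B+/- 3 among these fits (adjusted p = 0.0195). In AMPK-/- against WT, 680 genes were called by DESeq2, 825 with at least 10 counts in every library, 0 by limma with either pseudocount (2840 and 2543 at an unadjusted p under 0.05), 604 at 2-fold or more, and 6 without both shallow libraries. At 2-fold or more, 1770 genes were called in LMX1B+/- against WT and 955 in LMX1B-/- against LMX1B+/-. In LMX1B+/- against WT, 4 members were called with library size only, 7 with no filter and 1 with at least 10 counts in every library. Between LMX1B-/- and WT, DESeq2 called 34 genes and 1 member, library size only 19 and 3, no filter 329 and 4, and the fit of the 6 libraries compared 13 and 1, against 4 and 0. DESeq2 called 1 member (Nr4a2) in LMX1B-/- against LMX1B+/-, and limma 0 with either pseudocount, where 1 and 3 had an unadjusted p under 0.05. The cause of these shifts was not tested.

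Small differences changed sign. Lmx1b in LMX1B+/- against WT was −0.030 and −0.047 by limma with pseudocounts of 1 and 0.1. Foxa1 in LMX1B-/- against WT was −0.0043 with RLE factors, −0.065 with library size only, −0.013 with no filter and −0.022 in the fit of 6 libraries. With 1 library left out, the log2 fold changes in AMPK-/- against WT ran from −0.80 to 3.55 for En1, −1.34 to 0.48 for Th and −0.35 to 0.033 for Prkaa2. Those in LMX1B+/- against WT ran from −0.71 to 0.080 for Foxa1, −0.30 to 0.56 for Lmx1b and −0.50 to 0.007 for Nr4a2. In LMX1B-/- against WT they ran from −0.32 to 0.22 for Foxa2, −0.28 to 0.080 for Lmx1a and −0.42 to 0.33 for Foxa1, and against LMX1B+/- from −0.20 to 0.46 for Otx2 and −0.25 to 0.69 for Slc6a3.

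Replicate numbers did not pair the libraries: deviations of same-numbered libraries correlated at −0.18 to 0.15 in the prenatal and −0.12 to 0.05 in the neonatal experiment. With a replicate block, 1 member was called in AMPK-/- against WT (En1, 2.80, adjusted p = 0.0449), 2 in LMX1B+/- against WT, 0 in LMX1B-/- against WT and 1 in LMX1B-/- against LMX1B+/- (Nr4a2, 0.62, adjusted p = 0.0352). The shallow neonatal libraries limit any statement on members other than Aldh1a1 there.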
